A study of Mus musculus with 4 samples.

Results

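Genes of the interferon response and of antigen presentation were chosen by symbol: the interferon-induced families Ifi, Ifit, Ifitm, Isg, Oas and Gbp, the immunity-related GTPases, the interferon regulatory factors, Stat genes, the H2 genes of the mouse major histocompatibility complex (MHC), and B2m, Tap1, Tap2, Tapbp, the immunoproteasome genes and a few named effectors. Of 13824 gene symbols listed, 81 matched, and 70 had a mean of at least 1 FPKM, a level that counts sequenced fragments per transcript length and per library total, over the 4 libraries, and these are described as members. The 70 were among 11819 genes tested. The other 11 were Tap1, Gbp4, Gbp9, H2-M5, H2-Q2, H2-Q7, H2-T10, H2-T24, Oas1a, Rsad2 and Ifitm10. Next to the minimum, Gbp10 (1.04 FPKM) and Gbp6 (1.05 FPKM) were just inside, and H2-Q2 (0.872 FPKM) and Gbp9 (0.826 FPKM) just outside.

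The libraries came from C2C12 cells, a mouse myoblast line that fuses into myotubes when serum is lowered. In 2 libraries, siMEF2A, the cells had been given an siRNA against the muscle transcription factor gene Mef2a, and in 2 libraries, scrambled, an siRNA of scrambled sequence. All 4 libraries came from cells treated with 30 nM siRNA by Lipofectamine and kept 48 h in differentiation medium with 2% horse serum, so both groups carried transfected siRNA, and untransfected cells are not analysed here. The labels do not say whether the libraries of a group are separate cultures. The p-values therefore rest on library-to-library spread alone, part or all of which may be technical. The label calls the cells myoblasts, and 7 of 8 muscle markers (Myod1, Myog, Des, Ckm, Myh3, Actc1 and Tnnt1) were listed, with a summed level of 496 and 541 FPKM in siMEF2A against 860 and 948 FPKM in scrambled. Of 10 leukocyte markers 3 were listed (Cd68, Lyz2 and Cd14), summing to 20.3 and 19.0 FPKM in siMEF2A and 16 and 18.2 FPKM in scrambled, and of 4 endothelial markers 0 were listed. The part of these marker levels in the results was not tested, and in such bulk RNA fewer cells of a type and less RNA per cell cannot be told apart. The targeted gene Mef2a was at 12.7 and 14.3 FPKM in siMEF2A and at 25.8 and 32.2 FPKM in scrambled, 46.5% of the scrambled mean (limma adjusted p = 2.35e-05).

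Cells sense foreign RNA with cytosolic proteins such as RIG-I, encoded by Ddx58, and MDA5, encoded by Ifih1, which lead to secretion of interferon. Interferon receptors then activate transcription factors, among them STAT2 and IRF9, which bind interferon-stimulated response elements and switch on antiviral effectors, GTPases that attack intracellular parasites, and much of the machinery that cuts peptides and shows them on MHC class I. Interferon gamma acts mainly at another element, the gamma-activated site. In muscle fibres MHC class I is low in healthy tissue and raised in inflammatory muscle disease.

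Promoters of these genes are shown because the core of the response element was found both in members that passed the test and in members that did not. The sequences are RefSeq's, on GRCm38.p6 (mm10), and each line gives the 160 bases before the gene's start, 5′ to 3′ on the gene's strand, with matches to the core of the interferon-stimulated response element (GAAA, any 2 bases, GAAA, or its complement strand) in capitals. Bst2, Tgtp2 and Ifi44 were lower in siMEF2A, and Isg15, Igtp and B2m did not pass the test.
Bst2 (chr8:71537473-71537632, minus strand): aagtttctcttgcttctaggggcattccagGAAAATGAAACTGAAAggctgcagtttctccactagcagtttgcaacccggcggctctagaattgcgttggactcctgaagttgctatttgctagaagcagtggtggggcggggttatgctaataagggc
Tgtp2 (chr11:49064213-49064372, minus strand): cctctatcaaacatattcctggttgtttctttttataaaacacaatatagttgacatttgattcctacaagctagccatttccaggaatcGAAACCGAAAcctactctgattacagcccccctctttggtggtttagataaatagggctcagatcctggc
Ifi44 (chr3:151749911-151750070, minus strand): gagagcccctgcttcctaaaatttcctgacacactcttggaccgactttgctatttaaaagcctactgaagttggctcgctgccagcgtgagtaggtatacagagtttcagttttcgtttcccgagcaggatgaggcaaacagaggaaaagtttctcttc
Isg15 (chr4:156200819-156200978, minus strand): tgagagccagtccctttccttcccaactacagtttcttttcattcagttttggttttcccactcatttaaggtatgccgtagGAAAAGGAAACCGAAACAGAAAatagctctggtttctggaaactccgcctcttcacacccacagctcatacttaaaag
Igtp (chr11:58199396-58199555, plus strand): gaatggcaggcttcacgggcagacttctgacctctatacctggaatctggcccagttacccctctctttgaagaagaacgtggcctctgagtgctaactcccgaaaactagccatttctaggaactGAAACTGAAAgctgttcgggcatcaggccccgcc
B2m (chr2:122147527-122147686, plus strand): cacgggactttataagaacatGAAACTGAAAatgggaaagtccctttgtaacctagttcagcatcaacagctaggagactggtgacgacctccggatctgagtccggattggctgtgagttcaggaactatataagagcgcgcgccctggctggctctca
The match began 139 bases before the start in B2m, 70 in Tgtp2 and 34 in Igtp. Bst2 had 2 matches that overlap each other and Isg15 had 3. The core, searched on both strands, is not in the window of Ifi44. Only repeats of GAAA with exactly 2 bases between them were searched for, so an element of other spacing would be missed.

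The RefSeq table held promoters, from 250 bases before to 50 after the start, for 52 of the 70 members, among them 3 of the 6 members called. This core, overlapping matches included, was in a listed promoter of 23 of the 52 members (44.2%), against 3.59% of 8198 tested genes with a promoter and 3.99% of all 27025 genes in the table. TTCNNNGAA, the core of a gamma-activated site, which reads the same on both strands, was in 17 (32.7%), against 8.06% of the tested genes. All 9 GTPase genes with a promoter held the response element core, as did 3 of 7 MHC class I genes (B2m, H2-T22 and H2-T23) and 6 of 15 antiviral effector genes. Members with this exact core had a median log2 difference of -0.12 (2 of 23 lower) and members without it one of -0.04 (1 of 29 lower). That 1 was Ifi44, and elements of other spacing were not searched for in either set. Over all tested genes the medians were 0.04 with the core (3 of 294 lower) and 0.05 without it (95 of 7904 lower). Such a match describes letters and does not show a bound site.

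In siMEF2A 6 of the 70 members were lower and 0 were higher by limma at an adjusted p under 0.05. Over all genes tested 1.74% passed, 1.34% lower and 0.406% higher, and 8.57% of the members were lower. The 6 were Ifi27l2a, Oas2, Bst2, Tgtp2, Zbp1 and Ifi44. At an unadjusted p under 0.05, 11 members were lower, where 3.27% of all genes tested were, and 1 was higher, where 3.10% were. Groups did not overlap with siMEF2A lower in 20 members (28.6%), against 9.12% of all genes tested, and with siMEF2A higher in 5 members (7.14%), against 18.8%. The median log2 difference of the members, siMEF2A minus scrambled on the log2(FPKM + 1) scale, was -0.09, beside 0.04 for all genes tested. By role it was -0.39 for the 7 RNA sensors, -0.14 for the 12 GTPases and -0.02 for the 9 MHC class I genes, a description with no test of the difference between roles. The RNA sensor median is the value of Oas1b, and Oas1b and Oas2 had siMEF2A means under 1 FPKM, so that both passed the minimum only through the scrambled libraries, where they are high.

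**Figure D1:**
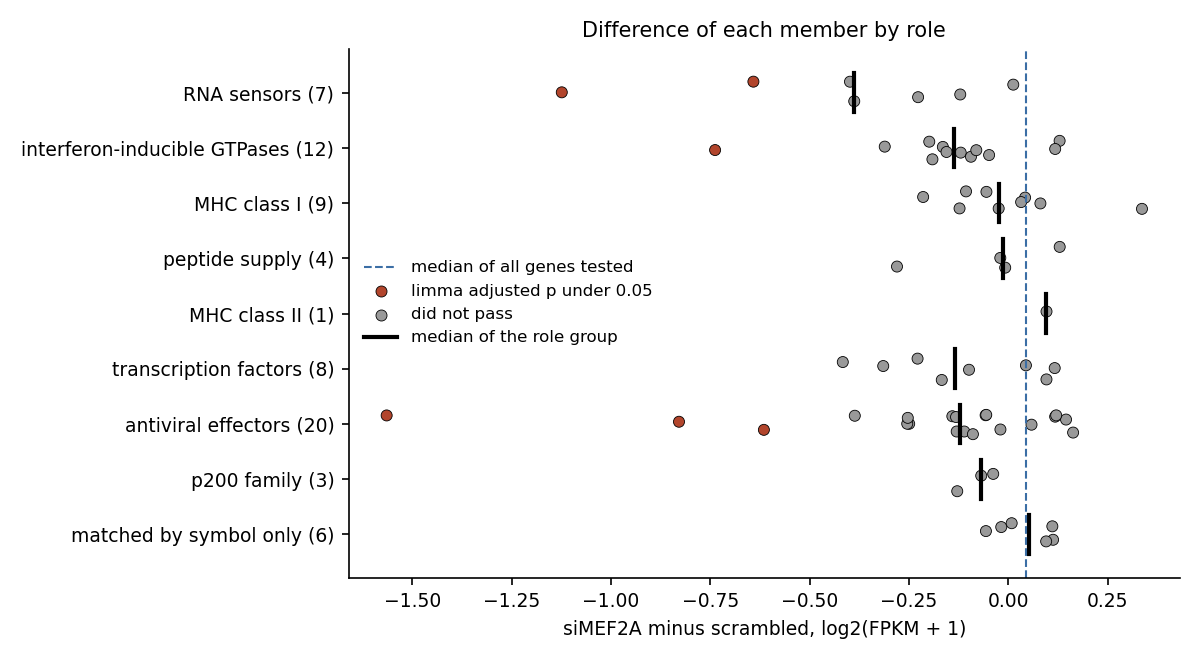
Each point is 1 of the 70 members, placed by its siMEF2A minus scrambled difference on the log2(FPKM + 1) scale (horizontal axis) and its role (rows, with the number of members). Red points passed limma at an adjusted p under 0.05, black bars are role medians and the dashed line is the median of all genes tested. The 6 red points lie in 3 roles, RNA sensors, GTPases and antiviral effectors, and the MHC class I points lie between -0.21 and 0.34.

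Among RNA sensors, Oas2 and Zbp1 were lower. Oas2 (chromosome 5, 120730333 to 120749853, minus strand, mm10) encodes an oligoadenylate synthetase, which on binding double-stranded RNA makes the messenger that activates RNase L. It was at 0.809 and 0.827 FPKM in siMEF2A against 2.81 and 3.12 FPKM in scrambled. The groups lay well apart, at 27.6% of the scrambled mean (log2 difference -1.12, SE 0.15, limma adjusted p = 2.53e-06). Its siMEF2A mean was under 1 FPKM, so that it passed the minimum through its scrambled libraries. The more abundant of its 2 listed transcripts, of 3869 bases, was at 26.7% of the scrambled mean.

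Zbp1 (chromosome 2, 173206612 to 173218923, minus strand) encodes a sensor of Z-form nucleic acid that can start necroptosis. It was at 11.1 and 8.63 FPKM in siMEF2A and at 15.3 and 16.5 FPKM in scrambled (62.2% of scrambled, log2 difference -0.64, SE 0.15, limma adjusted p = 0.0161). Both siMEF2A values were under both scrambled values, and siMEF2A replicate 2 was the lowest. A transcript of 770 bases made up 76.4% of its level and was at 61.7% of the scrambled mean. Leaving out scrambled replicate 2 gave a limma adjusted p of 0.0896 and leaving out siMEF2A replicate 2 one of 0.734. It was 0.0923 after quantile normalization and 0.0584 with low genes kept in, so that the call was lost in these 4 settings.

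Other synthetase genes did not pass the test. Oasl2, a synthetase-like gene, was at 11.0 and 14.3 FPKM in siMEF2A and 15.5 and 18.4 FPKM in scrambled (74.7%, limma adjusted p = 0.408). Oas1b, annotated as a polymorphic pseudogene, was at 0.810 and 1.15 FPKM in siMEF2A and 1.64 and 1.53 FPKM in scrambled (62.0%, limma adjusted p = 0.354). Oas1a, under the minimum for a test, was at 0.468 and 0.384 FPKM in siMEF2A and at 0.985 and 1.42 FPKM in scrambled. When genes were tested without a filter on low values, Oas1a was called lower (limma adjusted p = 0.0168). Oas1b, like Oas2, had a siMEF2A mean under 1 FPKM and passed the minimum through its scrambled libraries.

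The helicase sensors did not pass the test. Ddx58 was at 18.2 and 22.9 FPKM in siMEF2A and 20.6 and 24.2 FPKM in scrambled, with overlapping groups (91.9%, limma adjusted p = 1.00). Ifih1 was at 98.8% of scrambled. Dhx58, the gene of LGP2, which modulates both, was at 2.57 and 2.69 FPKM in siMEF2A and 3.04 and 3.47 FPKM in scrambled (80.8%), with groups apart.

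**Figure D2:**
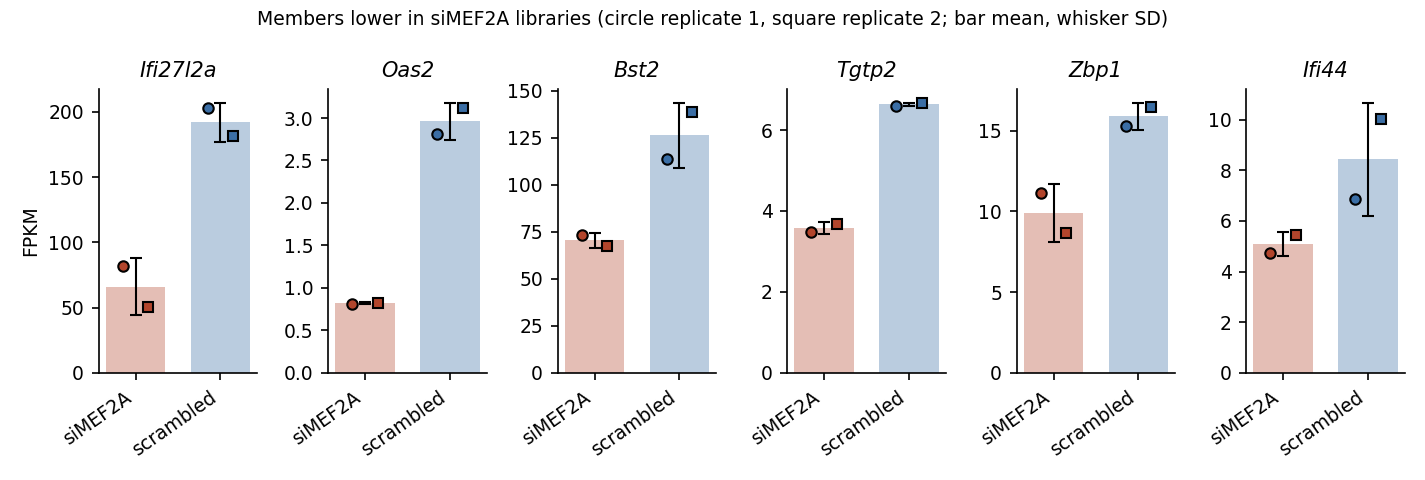
FPKM of the 6 members that were lower in siMEF2A (vertical axes, each with its own scale from 0), with siMEF2A on the left and scrambled on the right of each panel. Circles are replicate 1, squares replicate 2, bars the means and whiskers the SD over 2 libraries. In each panel both siMEF2A points lie under both scrambled points.

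Among 20 antiviral effectors 3 were lower, 0 were higher and 17 did not pass, where 1.34% of all genes tested were lower and 0.406% higher. Ifi27l2a (chromosome 12, 103442167 to 103443680, minus strand) encodes a small interferon-induced membrane protein of the ISG12 family. It was at 81.6 and 50.4 FPKM in siMEF2A and at 203 and 181 FPKM in scrambled. The mean was 66.0 ± 22.1 FPKM in siMEF2A and 192 ± 15.2 FPKM in scrambled (SD, n = 2 each), 34.4% of scrambled, the largest fall among the members on the log2(FPKM + 1) scale (log2 difference -1.56, SE 0.19, limma adjusted p = 5.46e-07). Its neighbour Ifi27l1, of the same family, was at 312 and 298 FPKM in siMEF2A and 345 and 323 FPKM in scrambled (91.3%, limma adjusted p = 1.00).

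Bst2 (chromosome 8, 71534255 to 71537456, minus strand) encodes tetherin, which holds budding enveloped viruses at the cell surface. It was at 73.1 and 67.7 FPKM in siMEF2A and at 114 and 139 FPKM in scrambled (55.7%, log2 difference -0.83, SE 0.17, limma adjusted p = 0.00232). The groups were separate, with scrambled replicate 2 the highest. Without siMEF2A replicate 2 the adjusted p was 0.0798.

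Ifi44 (chromosome 3, 151730922 to 151749960, minus strand), a cytoplasmic protein gene induced by interferon, was at 4.74 and 5.44 FPKM in siMEF2A and at 6.86 and 10.0 FPKM in scrambled (60.3%, log2 difference -0.62, SE 0.16, limma adjusted p = 0.0337). Scrambled replicate 2 stood above the other 3 libraries. Without it the log2 difference was -0.37 (limma adjusted p = 0.530). The call was also lost without siMEF2A replicate 1 (0.397) or siMEF2A replicate 2 (0.0548), under median-ratio scaling (0.0530) and quantile normalization (0.0850), with low genes kept in (0.128) and without an intensity trend (0.0708).

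Isg15, the ubiquitin-like protein that is conjugated to other proteins in infected cells, was at 53.7 and 40.7 FPKM in siMEF2A and 58.3 and 64.7 FPKM in scrambled (76.7%, limma adjusted p = 0.536). Usp18, the protease that removes it, was at 2.13 and 2.47 FPKM in siMEF2A and 2.2 and 3.8 FPKM in scrambled, with overlapping groups. Ifit1 and Ifit3, whose proteins block translation of or bind viral RNA, were at 80.9% and 81.7% of scrambled, and Ifit2 at 110%, all 3 with overlapping groups.

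Ifitm genes encode membrane proteins that block virus entry, and Ifitm3 was the most abundant member. Ifitm3 was at 1084 and 985 FPKM in siMEF2A and 945 and 1161 FPKM in scrambled, and Ifitm2 at 708 and 612 FPKM in siMEF2A and 578 and 635 FPKM in scrambled (limma adjusted p = 1.00 for both). Ifitm3 ranked 100th by mean level among the 11819 genes tested. Ifitm1 stood at 109% and Ifitm6 at 93.1% of scrambled. Parp9, Parp12 and Parp14, genes of ADP-ribosyltransferases linked to the interferon response, were at 84.3% to 95.1% of scrambled, and Isg20, an RNA exonuclease gene, was at 10.5 and 11.2 FPKM in siMEF2A and 12.1 FPKM in both scrambled libraries. Ifi35 was at 96.0%, and Ifi30, the lysosomal thiol reductase gene that helps to unfold antigens, at 104%. Ifitm5, mainly a gene of bone, was at 120%. Viperin's gene Rsad2, under the minimum, was at 0.466 and 0.718 FPKM in siMEF2A and 0.689 and 1.08 FPKM in scrambled.

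**Figure D3:**
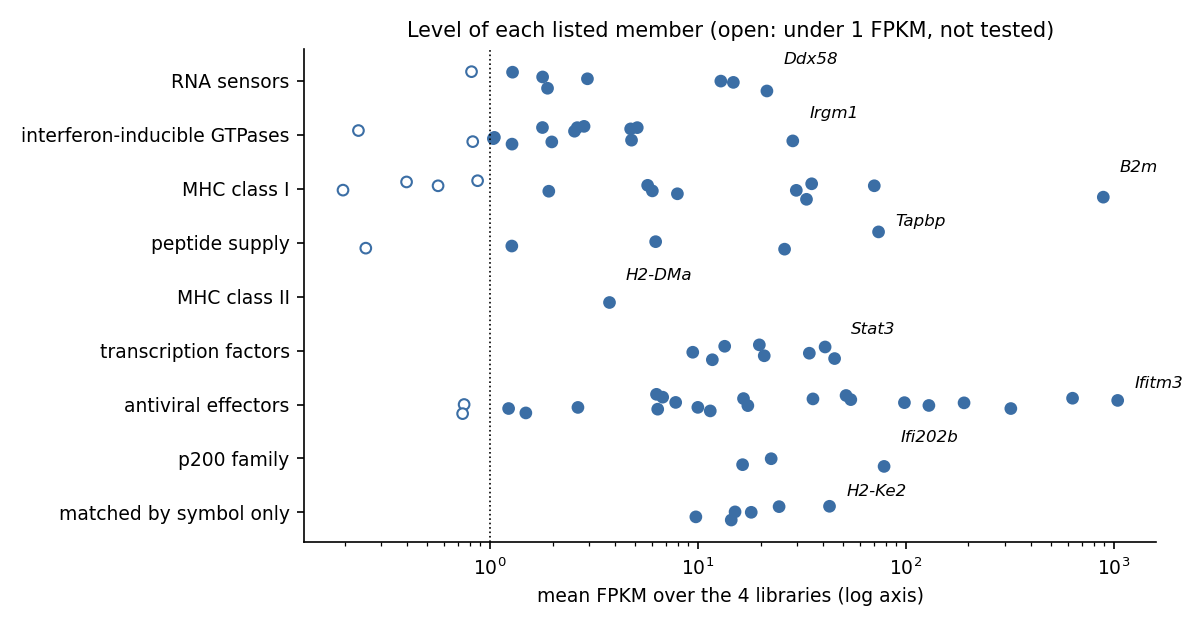
Mean FPKM over the 4 libraries (horizontal log axis) of each listed member by role (rows), with the highest of each role named and H2-Q7, listed at 0, left out. Open circles are under 1 FPKM and were not tested. GTPases have a median of 2.59 FPKM, RNA sensors one of 2.94 FPKM and MHC class I genes one of 29.7 FPKM.

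Of 12 interferon-inducible GTPases 1 was lower and 11 did not pass, where 1.34% of all genes tested were lower. Tgtp2 (chromosome 11, 49057194 to 49064206, minus strand), an immunity-related GTPase gene, was at 3.48 and 3.68 FPKM in siMEF2A and at 6.60 and 6.67 FPKM in scrambled (53.9%, log2 difference -0.74, SE 0.15, limma adjusted p = 0.00197). The groups were far apart and replicates close, but the value joins 2 transcripts that moved unequally. The coding transcript of 2810 bases was at 3.32 and 3.38 FPKM in siMEF2A and 3.92 and 5.79 FPKM in scrambled, 69.0% of scrambled. A processed transcript of 370 bases, which is not coding, was at 0.158 and 0.300 FPKM in siMEF2A and at 2.68 and 0.881 FPKM in scrambled, 12.9% of scrambled. With protein-coding transcripts only, an alternative chosen after seeing the data, Tgtp2 did not pass (log2 difference -0.41, limma adjusted p = 0.231).

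Tgtp2 also has a near copy. The most abundant transcripts of Tgtp1 and Tgtp2 were 99.8% identical over 2811 aligned bases, so the split of reads between them is uncertain. Tgtp1 was at 2.29 and 2.51 FPKM in siMEF2A and 2.62 and 3.91 FPKM in scrambled (73.5%, limma adjusted p = 0.816), lower in both siMEF2A libraries by a narrow gap.

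**Figure D4:**
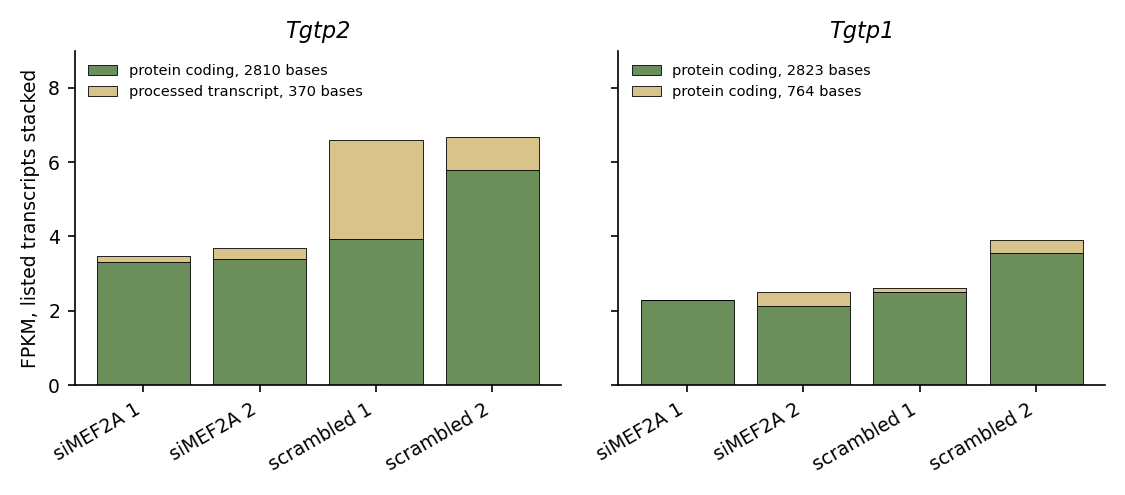
FPKM (vertical axis) of the listed transcripts of Tgtp2 (left) and Tgtp1 (right), stacked within each library, with siMEF2A libraries left of scrambled ones. In Tgtp2 the 370-base transcript is 2.68 FPKM in scrambled replicate 1 and 0.881 FPKM in scrambled replicate 2, and the coding transcript of scrambled replicate 1 lies nearer to the siMEF2A libraries.

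The other GTPase genes had overlapping groups except Gbp6. The siMEF2A mean of Gbp6 was 0.993 FPKM and its scrambled mean 1.11 FPKM, so that it passed the minimum through its scrambled libraries. Irgm1, which acts at membranes in autophagy and pathogen defence, was at 23.9 and 30.0 FPKM in siMEF2A and 26.1 and 34.3 FPKM in scrambled (89.2%). Igtp was at 3.72 and 5.03 FPKM in siMEF2A and 4.18 and 6.25 FPKM in scrambled (84.0%), and Irgm2 was at 86.5% of scrambled. The annotated spans of Igtp and Irgm2 overlap on chromosome 11, and whether reads were shared between them was not tested. Guanylate-binding protein genes were between 1.04 and 2.63 FPKM on average, with Gbp3 at 82.4%, Gbp7 at 86.4%, Gbp2 at 111% and Gbp2b at 114% of scrambled. Gbp6 and Gbp10, at 89.7% and 93.5%, were 98.5% identical over 3518 bases, so reads could be split between them. Iigp1 was at 90.1%. Of the 12 genes 10 had a difference under 0, and 9 of 12 had overlapping groups. Over all genes tested, 36.1% had a difference under 0, and 8515 of 11819 had overlapping groups.

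MHC class I genes were at 84.9% to 131% of their scrambled means, and 0 of 9 passed the test. With 1.74% of all genes tested passing, 0 of 9 does not set this role apart. B2m (chromosome 2, 122147686 to 122153083, plus strand), whose product is the light chain of every class I molecule, was at 858 and 852 FPKM in siMEF2A and 840 and 1010 FPKM in scrambled (92.5%, limma adjusted p = 1.00). The classical heavy chains were far below it. H2-D1 was at 65.9 and 71.7 FPKM in siMEF2A and 62.1 and 82.2 FPKM in scrambled (95.3%), and H2-K1 at 29.4 and 31.7 FPKM in siMEF2A and 30.5 and 41.5 FPKM in scrambled (84.9%). In each of these 3 genes scrambled replicate 2 was the highest library and scrambled replicate 1 lay near the siMEF2A values. The 2 heavy chains were 90.4% identical over 1403 bases of the main H2-K1 transcript, and reads from shared stretches could be counted for either.

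Of the nonclassical class I genes, H2-T22 was at 35.9 and 35.4 FPKM in siMEF2A and 35.6 and 34.0 FPKM in scrambled, and H2-T23, the gene of Qa-1, which inhibits natural killer cells, was at 105%. H2-M3, which presents formylated bacterial and mitochondrial peptides, was at 7.06 and 6.62 FPKM in siMEF2A and 4.68 and 5.78 FPKM in scrambled (131%). It was the 1 member higher at an unadjusted p under 0.05, with groups that did not overlap, and did not pass after adjustment (log2 difference 0.34, SE 0.15, limma adjusted p = 0.626). H2-Q4, H2-Q1 and H2-K2 were at 90.5%, 96.5% and 105%.

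Peptide supply to class I did not pass in any of 4 genes tested, where 1.74% of all genes tested passed. Tapbp, the gene of tapasin, which holds empty class I molecules for loading, was at 67.5 and 78.9 FPKM in siMEF2A and 61.4 and 87.8 FPKM in scrambled (98.2%). Tap2, a subunit of the peptide transporter, was at 5.80 and 7.37 FPKM in siMEF2A and 5.27 and 6.60 FPKM in scrambled (111%). Most of this was a transcript annotated as retaining an intron, at a mean of 5.26 FPKM. The coding transcript of Tap2 was at 0.795 and 1.47 FPKM in siMEF2A and 0.689 and 1.07 FPKM in scrambled. Tap1, the partner of Tap2, was under the minimum, at 0.214 and 0.235 FPKM in siMEF2A and 0.0970 and 0.465 FPKM in scrambled.

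Immunoproteasome subunits replace constitutive ones when interferon acts. Psmb10 was at 26.3 and 25.4 FPKM in siMEF2A and 24.7 and 28 FPKM in scrambled (98.4%). Psmb8 was low, at 0.923 and 1.17 FPKM in siMEF2A and 1.17 and 1.83 FPKM in scrambled (69.6%, limma adjusted p = 0.951). The constitutive counterparts Psmb5, Psmb6 and Psmb7 were at 97.3%, 98.2% and 102% of scrambled. Psmb9, the immunoproteasome counterpart of Psmb6, was not among the symbols listed. By level, Psmb5 at 108 and 92.8 FPKM in siMEF2A and 101 and 105 FPKM in scrambled stood far above its counterpart Psmb8 in every library. Among the symbols matched, H2-DMa was the 1 class II gene, which encodes part of a peptide editor, at 3.76 and 4.0 FPKM in siMEF2A and 3.44 and 3.70 FPKM in scrambled (109%).

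Among 8 transcription factor genes 0 passed, where 1.74% of all genes tested did, so the count does not set them apart. Irf7, which amplifies type I interferon production, was at 8.79 and 11.1 FPKM in siMEF2A and 13.3 and 13.8 FPKM in scrambled (73.5%, limma adjusted p = 0.299). Stat2 was at 16.9 and 20.1 FPKM in siMEF2A and 22.3 and 24.1 FPKM in scrambled (79.8%, limma adjusted p = 0.745). Irf9, whose product binds the response element together with STAT2, was at 17.0 and 19.2 FPKM in siMEF2A and 20.7 and 22.1 FPKM in scrambled (84.8%), with groups apart. This value joins coding transcripts that moved in opposite directions and were not tested singly. That of 2343 bases was at 1.60 and 1.52 FPKM in siMEF2A and 5.68 and 7.84 FPKM in scrambled. That of 2459 bases was at 9.07 and 10.3 FPKM in siMEF2A and 6.34 and 6.96 FPKM in scrambled. Irf1, Irf2 and Stat3 were at 103%, 108% and 109% of scrambled and Irf3 at 92.7%, all 4 with overlapping groups.

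The p200 genes, whose products bind DNA, and the genes that match by symbol alone also showed 0 calls. Of all genes tested 1.74% passed. Ifi202b was at 85.8 and 69.5 FPKM in siMEF2A and 74.3 and 84.6 FPKM in scrambled (97.7%), Ifi204 at 90.8% and Ifi203 at 95.0%. Ifi204 was 96.9% identical to Mnda, another p200 gene, over 1363 bases. The symbol matches were H2-Ke2, a prefoldin subunit gene, H2-Ke6, a steroid dehydrogenase gene, Isg20l2, Irf2bp1, Irf2bp2 and Irf2bpl, at 95.9% to 108% of scrambled.

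Libraries of a group differed in these genes. In scrambled replicate 2, 58 of 70 members (82.9%) were higher than in scrambled replicate 1, against 65.7% of all genes tested. The median difference between these libraries was 0.24 over the members and 0.09 over all genes. Between siMEF2A replicates 2 and 1 it was 0.13 over the members and 0.07 over all genes. By contrast the group difference of the members was -0.09. Set against single libraries, the median over the members was -0.30 for siMEF2A replicate 1 minus scrambled replicate 2 and 0.06 for siMEF2A replicate 2 minus scrambled replicate 1. For RNA sensors the same medians were -0.48 and -0.13, for GTPases -0.41 and 0.08, and for MHC class I genes -0.23 and 0.20. Oas1b and Oas2 are among these RNA sensors and passed the minimum only through the scrambled libraries.

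**Figure D5:**
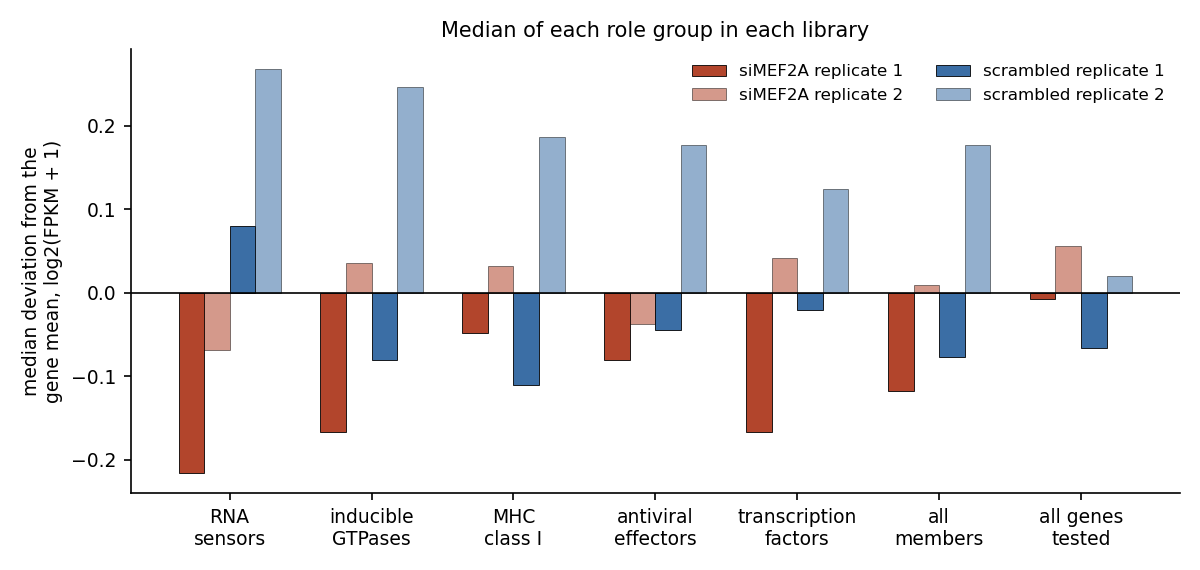
Median over the members of a role of each library's deviation from the gene's mean (vertical axis, log2(FPKM + 1)), with siMEF2A libraries left of scrambled ones in each cluster. In RNA sensors both siMEF2A bars lie under 0 and both scrambled bars over 0. These sensors include Oas1b and Oas2, which passed the minimum only through the scrambled libraries, where they are high. In GTPases and MHC class I genes scrambled replicate 1 lies under siMEF2A replicate 2.

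With a library left out, the number of members called lower was 6 without scrambled replicate 1, 4 without scrambled replicate 2, 5 without siMEF2A replicate 1 and 3 without siMEF2A replicate 2, all of them among the 6. Ifi27l2a and Oas2 were called under each alternative that tested them. The median of the GTPases was 0.01 without scrambled replicate 2, and that of the RNA sensors, Oas1b and Oas2 included, was -0.28.

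The pathway around these genes was followed in 56 companions, of which 46 were tested: 0 were higher and 0 lower by limma, and at an unadjusted p under 0.05, 3 were lower and 0 higher. Over all genes tested 1.34% were lower and 0.406% higher by limma, so few calls would be looked for in 46 genes. At an unadjusted p under 0.05, 3.27% of all genes tested were lower and 3.10% higher. Receptor and proximal signalling genes had a median log2 difference of 0.12 over 12 genes. Ifnar1, a chain of the type I receptor, was at 22.2 and 25.5 FPKM in siMEF2A and 19.0 and 23.0 FPKM in scrambled, and Jak1, a kinase bound to it, was at 28.4 and 32.6 FPKM in siMEF2A and 23.4 and 30.3 FPKM in scrambled. Sensors and adaptors had a median of 0.07 over 8 genes, antigen loading genes one of 0.06 over 10 and effectors one of -0.03 over 16.

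The 3 companions with the smallest p were effectors. Mx2, a dynamin-like antiviral GTPase gene, was at 4.34 and 5.0 FPKM in siMEF2A and 6.69 and 6.90 FPKM in scrambled (68.7%, limma adjusted p = 0.155). Xaf1 was at 22.2 and 22.1 FPKM in siMEF2A and 26 and 30.1 FPKM in scrambled (79.0%, limma adjusted p = 0.702). Lgals3bp was at 51.9 and 61.1 FPKM in siMEF2A and 59.1 and 90.5 FPKM in scrambled (75.5%, limma adjusted p = 0.720), with overlapping groups.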

How the data were processed

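RNA-seq of 2 siMEF2A and 2 scrambled C2C12 libraries was used. The deposited files give FPKM by the authors for 36231 Ensembl transcripts, per the file headers. CASAVA, Trimmomatic, TopHat, Bowtie, Cufflinks and mm10 are named in the submitters' processing notes. Tool versions, annotation, strand setting and scaling between libraries were not given in the sources used here. Without the strand setting, overlapping and antisense genes cannot be told apart. Absolute depth is unknown. From low FPKM values of genes with 1 listed transcript, depth relative to scrambled replicate 1 was estimated as 0.849, 0.847 and 1.04 in siMEF2A replicates 1 and 2 and scrambled replicate 2, if FPKM carried no other scaling. In the same order, these estimates rest on only 25, 17 and 17 of 600 genes, those whose ratios lay closest together.

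FPKM were summed per symbol, without 31 small RNA symbols, and the 11819 genes that averaged 1 FPKM or more were compared as log2(FPKM + 1), which understates changes of low genes, with limma 3.58.1 in R 4.3.3 (intensity trend, two-sided, Benjamini-Hochberg over all genes). Every adjusted p is from limma. The fit had 2 residual and 31.2 prior degrees of freedom, so a gene's p rests mostly on spread pooled over genes. On simulated data with the levels of the 11819 genes in this comparison it recovered 35.8% of 67 changes of 1.5-fold, 97.0% of 67 of 2-fold and 100% of 66 of 4-fold. These changes were added on the log2(FPKM + 1) scale, and only to genes above about 5 FPKM. Recovery of changes in lower genes, several members among them, was not simulated. Transcript types and coordinates came from GENCODE M21 (mm10), identity from BLAST 2.17.0 between listed transcripts, as the best match over at least 50% of the most abundant one.

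Members, lists and tests were chosen with earlier results of these data known. Named by rule were Mef2a, members called, the 8 members with the smallest p, the 3 most abundant of each role, and companions called or with the 3 smallest p, with Psmb5, Psmb6 and Psmb7. Other members are described because each was to be accounted for, with values seen. Ifnar1, Jak1 and Trex1 are companions named outside this rule. The values of 1 member are not reported here, though it is in the counts and medians. Alternatives changed the scaling, pseudocount, filter, trend, replicate block and transcripts, or left out a library.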

Additional observations from a re-analysis of the deposited data

How the results depend on the processing

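Over all genes, 158 were lower and 48 higher in siMEF2A. The lower count was 98 at a minimum mean of 5 FPKM, where fewer genes are tested. The higher count was 14 with median-ratio scaling, 11 with quantile normalization, 30 with low genes kept in, 25 without an intensity trend and 74 with protein-coding transcripts only (chosen after seeing the data), and ran from 41 to 73 with a library left out; the cause was not tested. Calls that were lower made up 76.7% of calls as deposited and 90.7% with both other scalings. Members called lower were 4 to 6 under the 7 alternatives that kept all 4 libraries and had no block, and 3 to 6 with a library left out, and 0 members were called higher under any of the 12 alternatives.

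With the replicate number as a block, 289 genes were lower and 222 higher, 8 members were lower (Irf7 and Oasl2 besides the 6) and 1 companion, Mx2. The labels do not pair the libraries, and the deviations of same-numbered libraries from their group means correlated at 0.288 across genes.

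Companions called lower numbered 0 to 1 with a library left out, Lgals3bp and Trex1 being called in 1 such fit each. With a library left out, the median of the RNA sensors, Oas1b and Oas2 included, ran from -0.47 to -0.22. That of MHC class I genes ran from -0.24 to 0.11. At a minimum mean of 5 FPKM the median of the GTPases was -0.45, where only Irgm1 and Tgtp2, the called gene, remain. Mef2a was lower under every alternative. No interval for counting error could be given, as depth is unknown.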
